A study of Solanum tuberosum with 9 samples.

Results

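The UDP-glycosyltransferases of secondary metabolism are described here across leaf RNA of 3 bulk samples of diploid potato. Members were chosen by their product names, namely the numbered UDP-glycosyltransferases and the transferases named after crocetin, 7-deoxyloganetin, anthocyanidins, flavonoids, kaempferol, scopoletin, hydroquinone or rhamnose. Products named after solanine, chaconine, zeatin or sterols were left out. This gave 145 of the 24169 genes listed in the study, and they carried 49 different product names. The plants came from the progeny of a diploid Solanum hybrid crossed with the wild species S. chacoense, and were grown untreated in a greenhouse until full anthesis. Leaf extracts of bulk sample F’ stimulated the growth of mustard seedlings, those of bulk sample B’ had low phytotoxicity and those of bulk sample A’ had high phytotoxicity, while all 3 bulks had a high glycoalkaloid content. Each bulk joined leaves of 3 individuals and was sequenced as 3 libraries, and the sources do not say how the 3 libraries arose. Their spread may be technical, and the FDR values speak of these bulks rather than of all plants with the phenotype.

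UDP-glycosyltransferases move a sugar, mostly glucose, from a UDP-sugar onto a small molecule such as a flavonoid, a coumarin, a terpenoid or a hormone. The sugar makes the acceptor more soluble and less reactive and allows its storage in the vacuole. The enzymes form a large family in every plant, with copies that often lie side by side, and the acceptor is poorly predicted by sequence. Names such as crocetin or 7-deoxyloganetin therefore come from similar enzymes of other plants, saffron and gardenia among them, and say little about the product in potato.

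Between 21199110 and 22517178 reads per library were counted on genes. The members took 0.236%, 0.241% and 0.239% of them in the F’ libraries, 0.231%, 0.237% and 0.216% in the B’ libraries and 0.220%, 0.228% and 0.217% in the A’ libraries. These are shares of raw counts. After TMM normalization the summed member counts were 49314, 56387 and 51326 in F’, 47769, 49331 and 41098 in B’, and 56345, 53583 and 52929 in A’. The order of the bulks thus depended on the scaling, and every B’ library was then below every A’ library. Markers of leaf mesophyll (39 genes of photosynthesis) were present in every library, so that the tissue fitted its label. Their summed level was 99955 to 107501 CPM in F’ and 82840 to 90555 CPM in B’, against 119834 to 142060 CPM in A’. Of these genes, 32 were lower in F’ than in A’ and 35 were lower in B’ than in A’. Markers of tuber (18 genes) summed to 101 to 141 CPM in F’, 169 to 276 CPM in B’ and 122 to 138 CPM in A’, and markers of pollen and anther (16 genes) to 162 to 171, 182 to 189 and 161 to 173 CPM in the same order. No marker was at 0 in all libraries, and the part of these levels in the results was not tested. In bulk tissue, fewer cells of a type and less RNA per cell cannot be told apart.

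Of the 145 members, 117 had enough counts to be tested in at least 1 comparison, and 105 were tested in all. DEGs were called with edgeR’s quasi-likelihood test at a Benjamini-Hochberg FDR under 0.05 over all genes tested. A Log2FC is the log2 of the fold change, positive where B’ or F’ was higher than A’, or F’ higher than B’. In B’ vs. A’, 33 of 117 members were higher (28.2%) and 30 were lower (25.6%), beside 16.4% higher and 16.5% lower among all genes tested. In F’ vs. A’, 32 of 106 members were higher (30.2%) and 24 lower (22.6%), beside 17.5% and 18.2% of all genes. In F’ vs. B’, 32 of 113 members were higher (28.3%) and 23 lower (20.4%), beside 13.7% and 16.3% of all genes. Some members were tested only because of the group in which they were high, so these shares and the FDR values of such members are descriptions.

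The members thus moved in both directions in every comparison. Their median Log2FC was 0.03 in B’ vs. A’, 0.03 in F’ vs. A’ and 0.09 in F’ vs. B’, beside 0.02, 0.02 and −0.00 over all genes. The median size of the Log2FC, without its sign, was 0.58, 0.50 and 0.55 among members and 0.33, 0.32 and 0.31 among all genes. The split depended on the scaling of the libraries. Without TMM normalization the median of all genes moved to 0.30, 0.17 and −0.11, and the members were then 42 higher and 21 lower in B’ vs. A’, 38 higher and 17 lower in F’ vs. A’, and 23 higher and 26 lower in F’ vs. B’. Calls with a Log2FC of 2 or more in size numbered 12 members in B’ vs. A’ (10.3% beside 3.41% of all genes), 7 in F’ vs. A’ (6.60% beside 3.56%) and 11 in F’ vs. B’ (9.73% beside 3.48%). The 3 libraries of each bulk lay fully apart for 75 members in B’ vs. A’ (64.1% beside 47.5% of all genes), 71 in F’ vs. A’ (67.0% beside 47.6%) and 69 in F’ vs. B’ (61.1% beside 44.3%). B’ and F’ share the A’ libraries, so the comparisons with A’ are given side by side only.

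**Figure D1:**
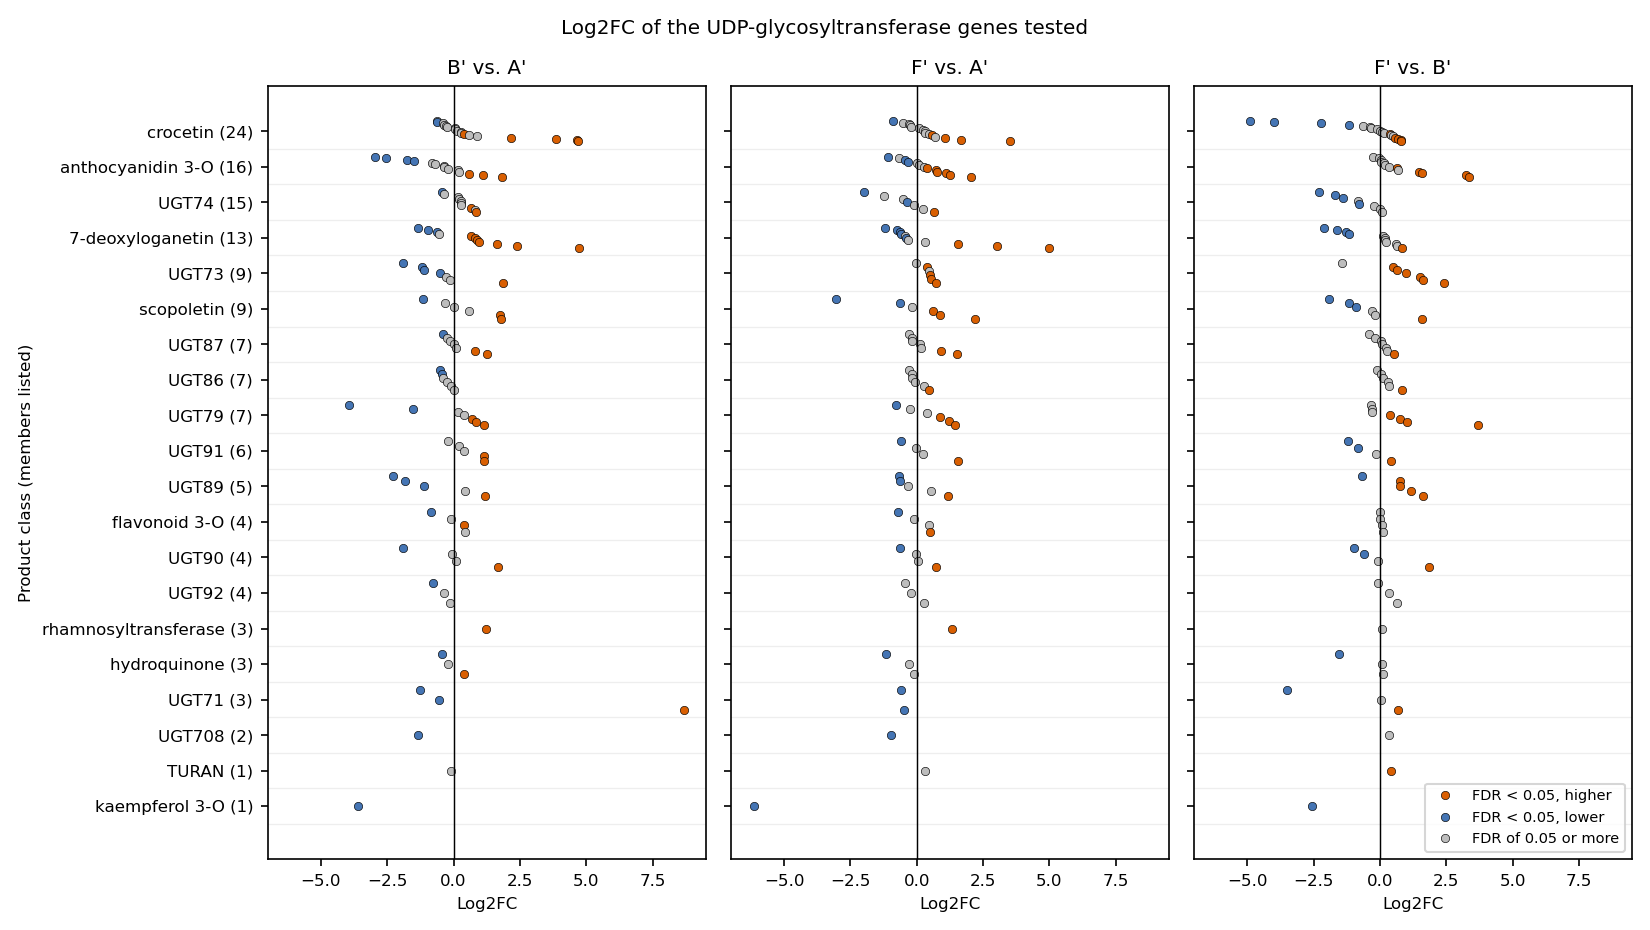
Log2FC (x axis) of each tested member by product class (y axis, with the number of members listed) in B’ vs. A’, F’ vs. A’ and F’ vs. B’. Orange and blue points had an FDR under 0.05 and grey points did not; nearly every class with several members held points on both sides of 0, and the class of 7-deoxyloganetin glucosyltransferases had 7 members higher and 3 lower in B’ vs. A’.

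A group of members was counted in B’ and almost absent from A’. UDP-glycosyltransferase 71E1-like (LOC102594045, chromosome 9) had 3, 0 and 11 counts in the F’ libraries and 48, 54 and 71 counts in the B’ libraries, against 0, 0 and 0 counts in the A’ libraries. Its level was at least 15.3-fold higher in B’ than in A’, computed against a floor of 3 counts per library, and it was lower in F’ than in B’ (Log2FC −3.48, SE 0.61, FDR = 0.0019). The few F’ counts kept it from being tested between F’ and A’. In F’ vs. B’ it was tested only through its B’ counts, so that FDR is a description.

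The largest class, with 24 members, was named after crocetin, the carotenoid acid of saffron, and 18 of these members were annotated to add a glucose to the sugar already present on crocetin. In B’ vs. A’, 5 of 18 tested members of the class were higher and 1 was lower, and in F’ vs. B’ 5 of 18 were higher and 4 were lower, which became 1 and 6 without TMM normalization. Among all genes the shares were 16.4% higher and 16.5% lower in B’ vs. A’ and 13.7% and 16.3% in F’ vs. B’. The gene beta-D-glucosyl crocetin beta-1,6-glucosyltransferase-like (LOC102596548) had 57, 39 and 53 counts in F’ and 102, 121 and 136 counts in B’, against 2, 3 and 6 counts in A’. It was higher in B’ (Log2FC 4.67, SE 0.34, FDR = 2.11e-06) and in F’ (Log2FC 3.52, SE 0.41, FDR = 1.63e-05) than in A’, and lower in F’ than in B’ (Log2FC −1.16). None of its libraries overlapped between the bulks. Against A’, LOC102596548 was tested only through its B’ or F’ counts, so those FDR values are descriptions.

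Another 3 members with the same product name had most of their counts in B’, and 2 of these lie next to each other. LOC102591505 had 8, 20 and 8 counts in F’ and 67, 57 and 63 counts in B’, against 3, 2 and 5 in A’ (B’ vs. A’ Log2FC 3.86, SE 0.37, FDR = 1.46e-05). Its neighbour LOC102602552 had 0, 1 and 3 counts in F’ and 21, 27 and 26 counts in B’, against 3, 6 and 4 in A’ (B’ vs. A’ Log2FC 2.16, SE 0.39, FDR = 0.0014). Both were also lower in F’ than in B’, LOC102591505 with a Log2FC of −2.24 (FDR = 0.00175) and LOC102602552 at 17.0 times fewer counts (95% interval 6.37 to 64.1). LOC102604618 had 1, 0 and 2 counts in F’ and 26, 39 and 43 counts in B’, against 2, 0 and 1 in A’. Its counts in B’ were 28.7 times those in A’ (95% interval 9.57 to 141) and 33.1 times those in F’ (95% interval 11 to 163). These exact intervals cover counting error only. LOC102591505 and LOC102602552 were tested only through their B’ counts, so their FDR values are descriptions. Of 2 further genes of that name, LOC107059410 had 78, 67 and 82 counts in F’ and 57, 47 and 37 in B’, against 12, 29 and 21 in A’, and was higher in F’ than in A’ (Log2FC 1.68, FDR = 0.000375). LOC107063420 was lower in F’ than in A’ (Log2FC −0.90, FDR = 0.00158). By contrast, the member of the class with the most counts, LOC102603640, had 3295, 3200 and 3484 counts in F’ and 2047, 2162 and 1926 counts in B’, against 2055, 1805 and 1991 in A’, and was higher in F’ than in A’ (Log2FC 0.58, FDR = 0.00193) and than in B’ (Log2FC 0.81, FDR = 0.000474).

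A further group was lower in B’ than in either other bulk. It was led by a pair of anthocyanidin 3-O-glucosyltransferase 5-like genes that lie next to each other on chromosome 2. In plants, enzymes of this name glucosylate the 3-hydroxyl of the anthocyanin skeleton. LOC102601479 had 669, 629 and 655 counts in F’, 56, 85 and 64 in B’, and 473, 399 and 423 in A’. LOC107060575 had 226, 241 and 181 counts in F’, 27, 28 and 18 in B’, and 97, 151 and 101 in A’. Both were lower in every B’ library than in any other library. LOC102601479 was lower in B’ than in A’ (Log2FC −2.98, SE 0.18, FDR = 6.2e-07) and higher in F’ than in B’ (Log2FC 3.36, SE 0.17, FDR = 1.57e-06), and LOC107060575 likewise (Log2FC −2.56, FDR = 2.39e-05, and Log2FC 3.26, FDR = 9.66e-06). Between F’ and A’ the differences were smaller. LOC107060575 was higher in F’ (Log2FC 0.71, FDR = 0.00852), and LOC102601479 was higher in F’ at an FDR of 0.0194 (Log2FC 0.40), which reached 0.102 when A’ library 2 or 3 was left out. The third member of this run, LOC102582381, had at most 5 counts in any library.

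UDP-glycosyltransferase 79B8-like (LOC107061873, chromosome 9) had 50, 53 and 45 counts in F’, 2, 3 and 7 in B’, and 58, 41 and 54 in A’. It was lower in B’ than in A’ (Log2FC −3.96, SE 0.41, FDR = 2.71e-05) and higher in F’ than in B’ (Log2FC 3.71, SE 0.42, FDR = 0.000111). With so few B’ counts, it was tested against B’ only through its A’ or F’ counts, so both FDR values are descriptions. In F’ vs. A’ its libraries overlapped (Log2FC −0.24, FDR = 0.473). The transferase LOC107062557 (UDP-glycosyltransferase 90A1-like, chromosome 2) was also lowest in B’, with 4530, 5138 and 4968 counts in F’, 1381, 1598 and 1394 in B’, and 4488, 4056 and 4479 in A’ (B’ vs. A’ Log2FC −1.89, FDR = 1.51e-06). It was higher in F’ than in B’ (Log2FC 1.86, FDR = 8.27e-06), and F’ and A’ overlapped (Log2FC −0.02, FDR = 0.919).

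**Figure D2:**
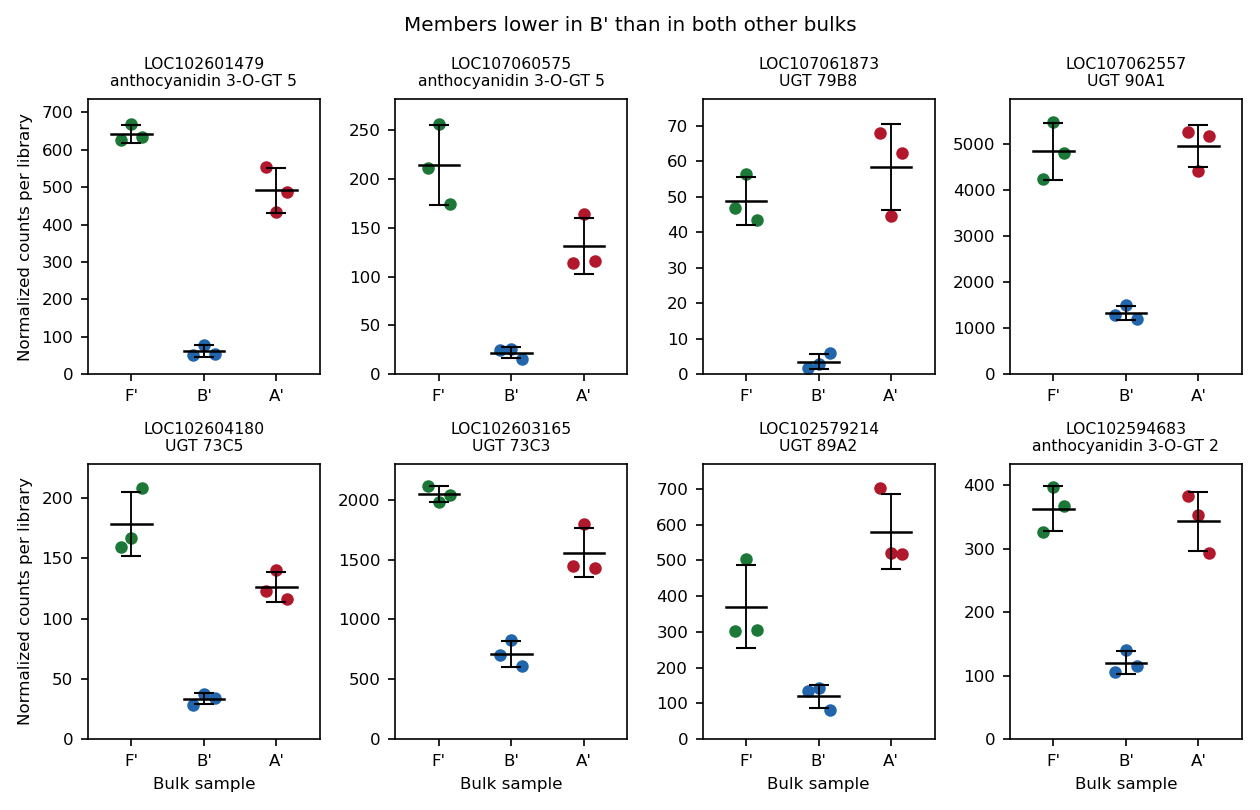
Normalized counts per library (y axis, from 0) of 8 members in F’, B’ and A’ (x axis). Points are libraries, lines are means and bars are SD over 3 libraries; in every panel all B’ libraries lie below all libraries of F’ and A’, as for LOC102601479 with 642 ± 23.8 in F’, 62.1 ± 15.0 in B’ and 492 ± 59.9 in A’.

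Several members of the UDP-glycosyltransferase class 73 were also lowest in B’. An Arabidopsis enzyme of the 73C group attaches glucose to brassinosteroid hormones and to a fungal toxin. Of 7 tested members of the class, 4 were lower and 1 was higher in B’ than in A’, and 6 were higher in F’ than in B’, beside 16.5% lower and 16.4% higher in B’ vs. A’ and 13.7% higher in F’ vs. B’ among all genes. Without TMM normalization the class numbers were 3, 1 and 5, and 1 member was then lower in F’ than in B’. A stretch of 3 of these genes lies side by side. LOC102603165 (73C3-like) had 2266, 1863 and 2114 counts in F’, 758, 885 and 709 in B’, and 1237, 1649 and 1245 in A’. LOC102604180 (73C5-like) had 171, 157 and 216 counts in F’, 31, 40 and 40 in B’, and 105, 129 and 101 in A’. LOC102603508 (73C3-like, chromosome 10) had 190, 128 and 237 counts in F’, 47, 73 and 71 in B’, and 103, 150 and 102 in A’. No B’ library of these genes reached a library of F’ or A’. In B’ vs. A’ their Log2FC was −1.12, −1.91 and −1.21, and in F’ vs. B’ it was 1.51, 2.40 and 1.64, all with an FDR of at most 0.00155. Against A’, LOC102603165 and LOC102604180 were higher in F’ (Log2FC 0.41 and 0.51, FDR = 0.0184 and 0.025). These calls were lost without A’ library 1 or 3 or F’ library 3, and for LOC102603165 also without F’ library 1, with an FDR of up to 0.108 and 0.142. LOC102592932 (73C1-like) was higher in F’ than in A’ (Log2FC 0.71, FDR = 0.00175) and than in B’ (Log2FC 0.97, FDR = 0.00152), and it was not called in B’ vs. A’ (Log2FC −0.27, FDR = 0.264). It was singled out after its values were seen.

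On chromosome 5, 3 UDP-glycosyltransferase 89A2-like genes within 8.47 kb were lower in B’ than in A’. In Arabidopsis this enzyme glycosylates dihydroxybenzoic acids. LOC102579214 had 323, 474 and 316 counts in F’, 146, 152 and 95 in B’, and 600, 478 and 451 in A’ (B’ vs. A’ Log2FC −2.27, SE 0.20, FDR = 9.55e-06). LOC102579535 had 251, 265 and 240 counts in F’, 135, 159 and 67 in B’, and 384, 351 and 312 in A’ (Log2FC −1.84, SE 0.26, FDR = 0.00026). LOC102599059 was lower in B’ by less (Log2FC −1.11, FDR = 0.000386). F’ lay between the other bulks. LOC102579214 and LOC102579535 were lower in F’ than in A’ (Log2FC −0.64 and −0.66, FDR = 0.0164 and 0.00172) and higher in F’ than in B’ (Log2FC 1.62 and 1.17, FDR = 0.00093 and 0.0102). The F’ vs. A’ call of LOC102579214 was lost without A’ library 1, F’ library 1 or F’ library 3 (FDR up to 0.0653). Other members of the class went the other way. LOC102598721 (89B1-like, chromosome 12) was higher in B’ than in A’ (Log2FC 1.19, FDR = 0.000273), and LOC102579078 (89B2-like, chromosome 3) was higher in F’ than in A’ (Log2FC 1.19, FDR = 0.000172).

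Some members were highest in A’. The gene named after kaempferol 3-O-beta-D-galactosyltransferase, an enzyme that puts galactose on flavonols in petunia pollen, changed most among them. LOC102580477 (chromosome 7) had 11, 1 and 12 counts in F’ and 38, 55 and 60 counts in B’, against 475, 547 and 468 counts in A’. It was lower in F’ than in A’ (Log2FC −6.13, SE 0.28, FDR = 2.13e-09), lower in B’ than in A’ (Log2FC −3.60, SE 0.17, FDR = 7.94e-08), and lower in F’ than in B’ (Log2FC −2.55, SE 0.51, FDR = 0.00386). In the comparisons with F’ it was tested only through its A’ or B’ counts, so the FDR values of those comparisons are descriptions. The 3 bulks did not overlap. The same order was found for a scopoletin glucosyltransferase-like gene, LOC102602977, with 33, 11 and 33 counts in F’ and 117, 113 and 81 in B’, against 161, 218 and 178 in A’ (F’ vs. A’ Log2FC −3.05, FDR = 8.7e-07, and B’ vs. A’ Log2FC −1.15, FDR = 0.000812). LOC102581417 (anthocyanidin 3-O-glucosyltransferase, chromosome 9) was lower in both than in A’, with 94, 142 and 108 counts in F’ and 92, 82 and 60 in B’, against 239, 214 and 181 in A’ (B’ vs. A’ Log2FC −1.75, FDR = 5.8e-05, and F’ vs. A’ Log2FC −1.06, FDR = 0.000699).

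Scopoletin glucosyltransferases attach glucose to the coumarin scopoletin, which solanaceous plants accumulate under attack by pathogens. A run of 5 genes of this name spanned 52.8 kb. Its member with the most counts, LOC102583517, had 1023, 990 and 1177 counts in F’ and 2286, 2743 and 2695 in B’, against 590, 696 and 546 in A’. It was higher in B’ than in A’ (Log2FC 1.76, SE 0.13, FDR = 1.92e-06) and higher in F’ than in A’ (Log2FC 0.61, SE 0.12, FDR = 0.00124), and lower in F’ than in B’ (Log2FC −1.16, FDR = 6.25e-05). Its neighbour LOC102582853 followed the same order, with a Log2FC of 1.79 in B’ vs. A’ (FDR = 9.87e-05) and 0.89 in F’ vs. A’ (FDR = 0.0118). LOC102583841, in the same run, was too low to be tested and had 2, 1 and 2 counts in F’ and 8, 33 and 22 in B’, against 1, 1 and 1 in A’, so that its B’ counts were 16.7 times those in A’ (95% interval 5.48 to 83.4). The last gene of the run differed from its neighbours. LOC102584161 had 211, 251 and 222 counts in F’ and 63, 96 and 88 in B’, against 42, 47 and 42 in A’. It was higher in F’ than in A’ (Log2FC 2.20, SE 0.18, FDR = 5.38e-07) and than in B’ (Log2FC 1.59, SE 0.20, FDR = 0.000206), and it did not pass the test in B’ vs. A’ (Log2FC 0.60, FDR = 0.0648).

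**Figure D3:**
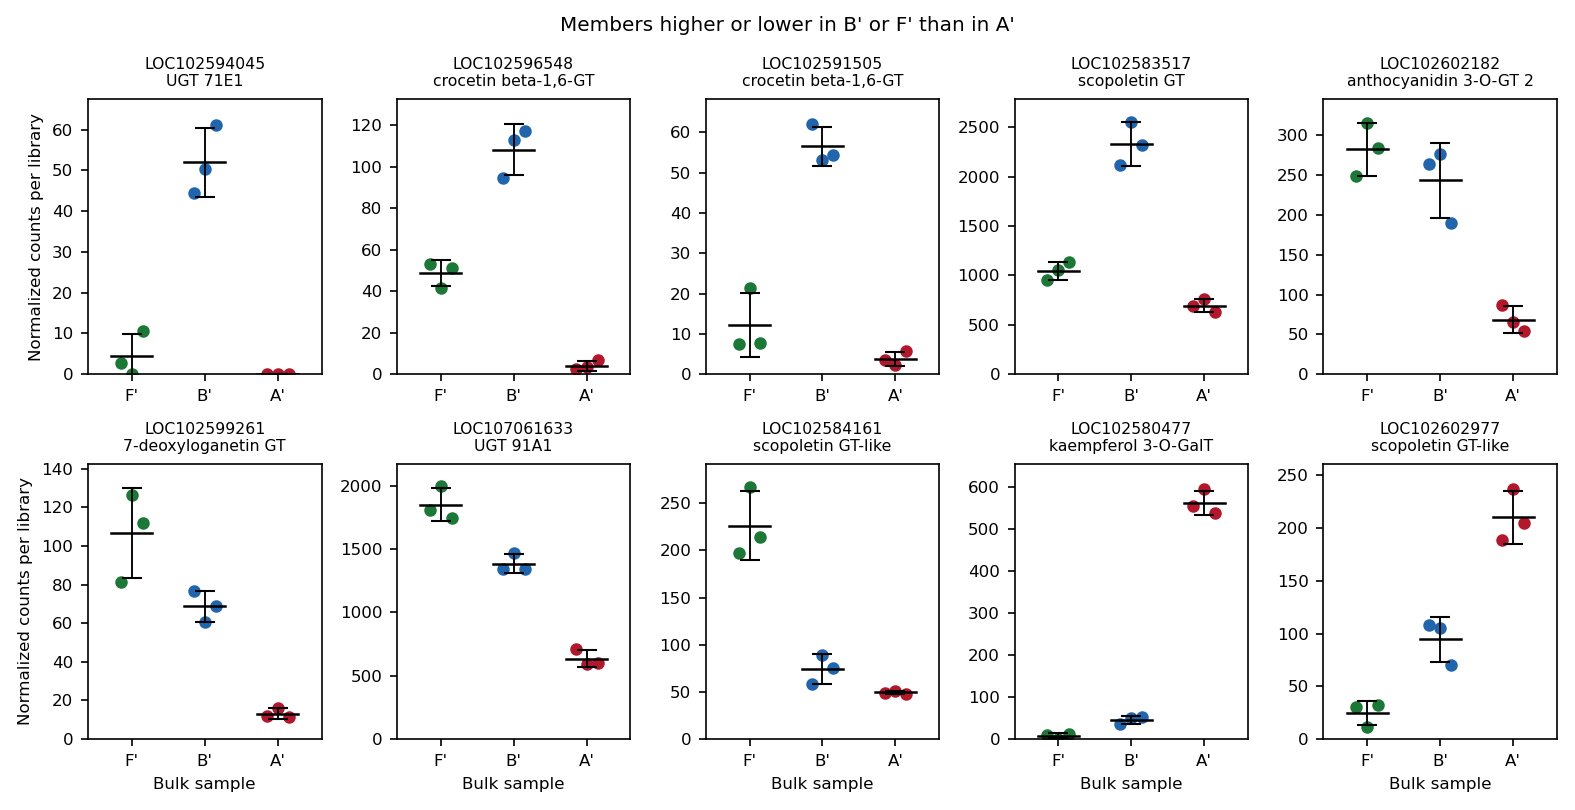
Normalized counts per library (y axis, from 0) of 10 members in F’, B’ and A’ (x axis). Points are libraries, lines are means and bars are SD over 3 libraries; LOC102594045 was at 0 in all A’ libraries, while LOC102580477 averaged 7.64 ± 5.74 in F’, 46.1 ± 9.45 in B’ and 563 ± 29.2 in A’.

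The 7-deoxyloganetin glucosyltransferases take their name from iridoid synthesis in gardenia and periwinkle. Of 11 tested members, 7 were higher and 3 were lower in B’ than in A’, with a median Log2FC of 0.82, and 3 were higher and 5 were lower in F’ than in A’, with a median of −0.42. In F’ vs. B’, 1 was higher and 4 were lower while the median was 0.18, and the number higher was 2 with upper-quartile scaling and 0 without TMM normalization. The counts in the comparisons with A’ were the same under all scalings tried, but without TMM normalization their medians were 1.09 and −0.27. Among all genes, 16.4% were higher and 16.5% lower in B’ vs. A’, 17.5% and 18.2% in F’ vs. A’, and 13.7% and 16.3% in F’ vs. B’. On chromosome 3, 2 neighbours had more counts in both bulks than in A’. LOC102599261 had 87, 119 and 116 counts in F’ and 83, 65 and 80 in B’, against 10, 15 and 10 in A’ (F’ vs. A’ Log2FC 3.01, FDR = 2.19e-06, and B’ vs. A’ Log2FC 2.38, FDR = 5.84e-05). LOC102598268 had 11, 19 and 18 counts in F’ and 12, 16 and 16 in B’, against 0, 0 and 1 in A’. This is 41.6 times the A’ counts in F’ (95% interval 7.12 to 1678) and 35.1 times in B’ (95% interval 5.98 to 1417), so that only a lower limit is well known.

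A pair 27.4 kb long on a contig of chromosome 12 was highest in B’ and lowest in F’. LOC102582803 had 936, 901 and 863 counts in F’ and 3052, 3041 and 2822 in B’, against 1165, 1274 and 1208 in A’ (B’ vs. A’ Log2FC 0.97, FDR = 6.4e-05). LOC102582137 had 264, 230 and 246 counts in F’ and 660, 675 and 589 in B’, against 311, 375 and 297 in A’ (B’ vs. A’ Log2FC 0.66, FDR = 0.00258). Both were lower in F’ than in A’ (Log2FC −0.62 and −0.60, FDR = 0.000582 and 0.00179) and lower in F’ than in B’ (Log2FC −1.61 and −1.27, FDR = 7.69e-06 and 4.31e-05). A run on chromosome 4 was mixed. LOC102605035 was lower in B’ (Log2FC −1.33, FDR = 3.42e-05) and in F’ (Log2FC −1.21, FDR = 4.55e-06) than in A’, while LOC102578390, with 10, 11 and 8 counts in F’ and 56, 47 and 34 in B’, against 12, 12 and 11 in A’, was higher in B’ (Log2FC 1.65, FDR = 0.0025). On chromosome 3, LOC102598611 was higher in F’ than in A’ (Log2FC 1.55, FDR = 0.00028), and LOC102579965 was lower in F’ (Log2FC −0.75, FDR = 0.000186) and in B’ (Log2FC −0.97, FDR = 0.000163) than in A’. LOC102606387, the member of the class with the most counts, had 3281, 3401 and 3291 counts in F’ and 3297, 3343 and 2857 in B’, against 3944, 3934 and 3787 in A’ (B’ vs. A’ Log2FC −0.61, FDR = 0.00292).

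Of the 16 transferases named after anthocyanidins, 14 were tested in B’ vs. A’, where 3 were higher and 4 were lower, and 13 in F’ vs. A’, where 6 were higher and 3 were lower (2 lower with DESeq2 and 1 without TMM normalization). With DESeq2, 2 were higher in B’ than in A’. Over all genes, 16.4% were higher and 16.5% lower in B’ vs. A’, and 17.5% and 18.2% in F’ vs. A’. The class shares of higher members in B’ vs. A’ and of lower members in F’ vs. A’ were near these. In F’ vs. B’, 5 of 13 were higher and none was lower, at 13.7% and 16.3% over all genes. The F’ vs. B’ numbers were the same under all scalings tried. A pair of neighbours on chromosome 7 was higher in both bulks than in A’. LOC102602182 (anthocyanidin 3-O-glucosyltransferase 2-like) had 266, 296 and 294 counts in F’ and 285, 296 and 220 in B’, against 74, 60 and 47 in A’ (F’ vs. A’ Log2FC 2.05, FDR = 1.19e-06, and B’ vs. A’ Log2FC 1.83, FDR = 5.73e-05). LOC102601849, of the same name, had 145, 179 and 150 counts in F’ and 102, 123 and 101 in B’, against 55, 67 and 53 in A’, and was higher in F’ than in A’ (Log2FC 1.25, FDR = 0.000156). Its B’ vs. A’ call (Log2FC 0.58, FDR = 0.0394) was lost without B’ library 1 or 2 or any A’ library, with an FDR of up to 0.181, and under DESeq2. A gene of this name on the same contig, LOC102594683, took the opposite course in B’, with 350, 373 and 380 counts in F’ and 114, 151 and 134 in B’, against 328, 324 and 255 in A’ (B’ vs. A’ Log2FC −1.50, FDR = 3.44e-05, and F’ vs. B’ Log2FC 1.58, FDR = 3.97e-05). LOC102601517 (anthocyanidin 3-O-glucosyltransferase 6-like), the member of the class with the most counts, was not called in any comparison, with Log2FC values of −0.35, 0.01 and 0.35.

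The 79B group holds enzymes that lengthen the sugar chain of flavonol and anthocyanin glycosides in Arabidopsis. A run on chromosome 4 held 5 of the 7 members of class 79 and a gene named after an anthocyanidin xylosyltransferase. LOC102600382 (79B6-like) had 455, 407 and 468 counts in F’ and 360, 373 and 372 in B’, against 164, 171 and 164 in A’. LOC102600382 was higher in F’ than in A’ (Log2FC 1.22, SE 0.12, FDR = 3.21e-06) and higher in B’ than in A’ (Log2FC 0.83, SE 0.12, FDR = 0.000378). Its neighbour LOC102600944 (79B6-like) went the other way, with 249, 317 and 292 counts in F’ and 179, 211 and 161 in B’, against 458, 441 and 384 in A’ (B’ vs. A’ Log2FC −1.53, FDR = 1.95e-05, and F’ vs. A’ Log2FC −0.77, FDR = 0.000904). This gene contains LOC107061971 (79B6-like) within its borders, so that reads of the pair could be split by the counting. LOC107061971 was higher in F’ than in A’ (Log2FC 1.44, FDR = 0.000114) and than in B’ (Log2FC 1.04, FDR = 0.00253). LOC107061976 (79B11-like) was higher in B’ than in A’ (Log2FC 1.14, FDR = 0.00262), and its F’ vs. A’ call (Log2FC 0.88, FDR = 0.0128) was lost without A’ library 3 (FDR = 0.0685).

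The longest run of members lay on chromosome 11, where 7 genes spanned 46.4 kb. It held 5 UDP-glycosyltransferase 91A1-like genes and 2 of the 3 genes named putative UDP-rhamnose:rhamnosyltransferase 1, which in strawberry transfers rhamnose. LOC107061633 (91A1-like) had 1935, 1879 and 1808 counts in F’ and 1454, 1577 and 1553 in B’, against 608, 543 and 525 in A’. It was higher in F’ than in A’ (Log2FC 1.55, SE 0.12, FDR = 3.75e-07) and higher in B’ than in A’ (Log2FC 1.13, SE 0.12, FDR = 3e-05). It was also higher in F’ than in B’ (Log2FC 0.41, FDR = 0.0157), a call lost without B’ library 1 (FDR = 0.0516). The gene lies inside LOC102600168, which had at most 7 counts in any library. The first gene of the run, LOC102599178, was lower in F’ than in A’ (Log2FC −0.61, FDR = 0.00212) and than in B’ (Log2FC −0.81, FDR = 0.000812).

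The rhamnosyltransferase genes had few counts. LOC107061623 had 18, 26 and 33 counts in F’ and 36, 25 and 17 in B’, against 5, 13 and 9 in A’. It was called higher in F’ (Log2FC 1.32, SE 0.41, FDR = 0.0234) and in B’ (Log2FC 1.21, SE 0.43, FDR = 0.0483) than in A’, but both calls were weak. The first was lost without A’ library 1 or 3 or F’ library 3 (FDR up to 0.101). The second was lost without B’ library 1 or 2 or any A’ library (FDR up to 0.169), under DESeq2 and with a minimum of only 1 count. Against A’, LOC107061623 was tested only through its F’ or B’ counts, so its FDR values are descriptions. LOC102600828 had 1, 2 and 2 counts in F’ and 8, 8 and 3 in B’, against 0, 0 and 0 in A’, and was too low to be tested. LOC107062243 had at most 3 counts in any library. UDP-glycosyltransferase 91C1 (LOC102596452, chromosome 2) belongs to the same class as the 91A1-like genes, but not to the run. It had 112, 125 and 145 counts in F’ and 313, 326 and 310 in B’, against 104, 128 and 110 in A’, and was higher in B’ than in A’ (Log2FC 1.16, SE 0.14, FDR = 7.81e-05) and lower in F’ than in B’ (Log2FC −1.20, FDR = 0.000232).

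**Figure D4:**
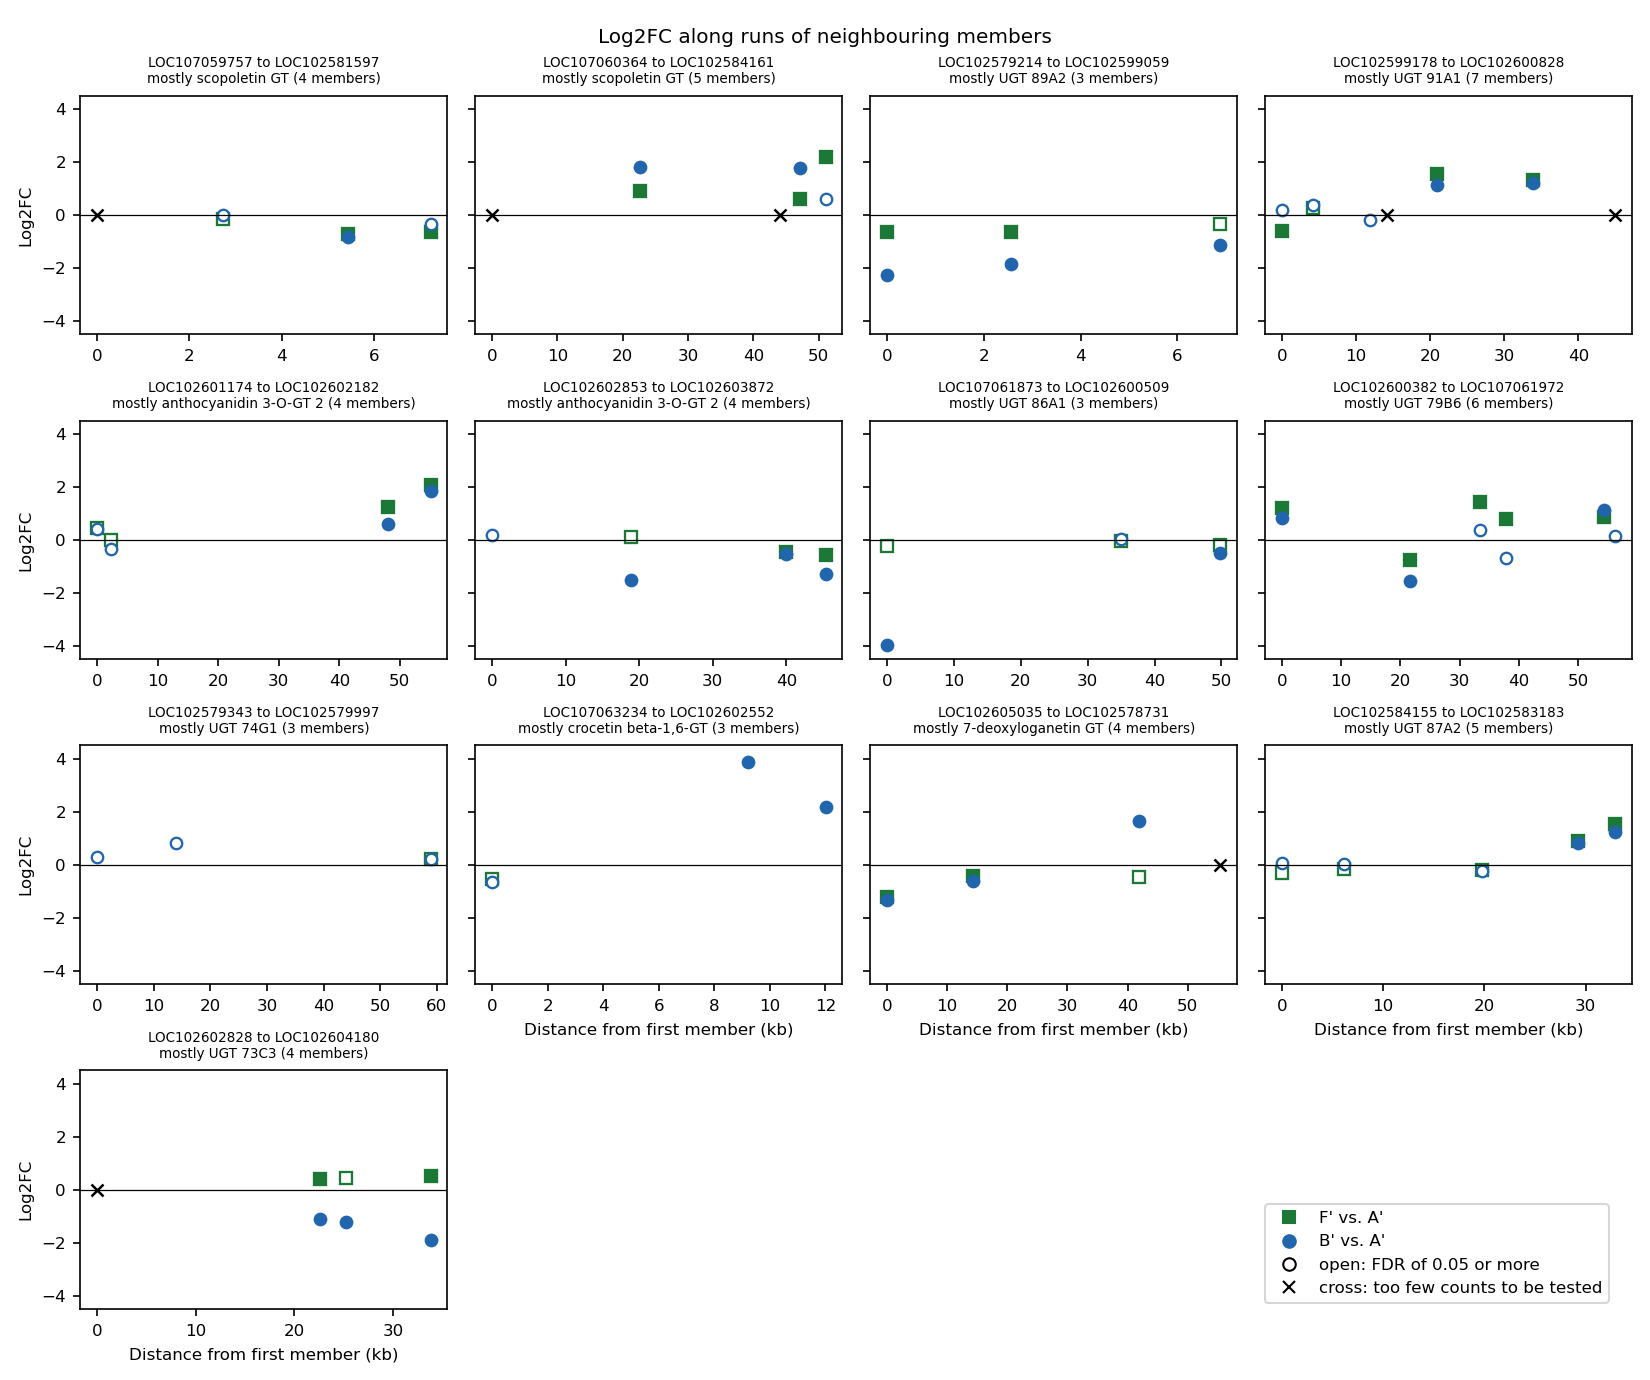
Log2FC (y axis) of members in 13 runs against the distance from the first member of the run in kb (x axis). Green squares are F’ vs. A’ and blue circles are B’ vs. A’, open where the FDR was 0.05 or more, and crosses are members with too few counts; the 89A2-like run lay below 0 throughout, while the 79B6-like and 7-deoxyloganetin runs had called members on both sides of 0.

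In all, 91 of the 145 members lay within 50 kb of another member, in 28 runs of 2 to 7 genes. Of the 15 runs with at least 2 called members in B’ vs. A’, 12 had all of them in the same direction and 3 had both directions. In F’ vs. A’, these numbers were 11 and 4 of 15 runs, and in F’ vs. B’ they were 9 and 3 of 12 runs. No such numbers were made for other neighbouring genes, and whether neighbours share a direction was not tested. Neighbours of high similarity can share reads, so that the values of a run may not be independent of each other. Similarity and shared reads were not measured.

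Some, but not all, UDP-glycosyltransferases of class 74 act on hormones in Arabidopsis, among them salicylic acid and auxins. Of 10 members tested in B’ vs. A’, 2 were higher and 1 was lower, and of 8 tested in F’ vs. B’, none was higher and 4 were lower. Without TMM normalization 4 were higher and none was lower in B’ than in A’, and DESeq2 called 2 lower in F’ than in B’. Among all genes, 16.4% were higher and 16.5% lower in B’ vs. A’, near the shares of the class, and 13.7% were higher and 16.3% lower in F’ vs. B’. The gene LOC102603422 (74B1-like, chromosome 5) had 19, 19 and 12 counts in F’, 87, 80 and 99 in B’, and 59, 66 and 50 in A’. It was lower in F’ than in A’ (Log2FC −1.99, SE 0.29, FDR = 0.000105) and lower in F’ than in B’ (Log2FC −2.28, SE 0.27, FDR = 0.000139), and it was not called in B’ vs. A’ (Log2FC 0.28, FDR = 0.29). The neighbouring 74B1-like gene LOC102603088 had 1, 0 and 2 counts in F’, 8, 24 and 29 in B’, and 14, 21 and 9 in A’. Its counts in A’ were 16.9 times those in F’ (95% interval 5.42 to 85.1), and those in B’ were 18.7 times those in F’ (95% interval 6.10 to 93.2). The 74F2-like gene LOC102606101, named after an Arabidopsis enzyme that glucosylates salicylic acid, had 1329, 999 and 1399 counts in F’ and 2092, 2257 and 2598 in B’, against 1217, 1207 and 1106 in A’. This gene was higher in B’ than in A’ (Log2FC 0.65, FDR = 0.0011) and lower in F’ than in B’ (Log2FC −0.79, FDR = 0.000901), and it overlaps another listed gene.

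On chromosome 3, a pair of 90A1-like genes differed from each other. LOC102592659 had 96, 109 and 81 counts in F’ and 207, 229 and 165 in B’, against 46, 45 and 60 in A’ (B’ vs. A’ Log2FC 1.68, SE 0.21, FDR = 0.000115). It was lower in F’ than in B’ (Log2FC −0.96, FDR = 0.00623), and its call in F’ vs. A’ (Log2FC 0.73, FDR = 0.0203) was lost without A’ library 1 or 2 or F’ library 2 (FDR up to 0.0839). Its neighbour LOC102592315 was lower in F’ than in A’ (Log2FC −0.63, FDR = 0.00115) and was not called in B’ vs. A’ (Log2FC −0.07, FDR = 0.738). In the 87A2-like run of chromosome 2, named after a regulator of flowering time in Arabidopsis, LOC102583510 was higher in both B’ (Log2FC 0.81, FDR = 0.00597) and F’ (Log2FC 0.90, FDR = 0.00337) than in A’. LOC102583835, the member of that run with the most counts, was not called in any comparison. In classes 71 and 92 the member with the most counts was called against A’, and in class 86 it was not called. LOC102603533 (71K1-like) was lower in F’ (Log2FC −0.48, FDR = 0.00934) and in B’ (Log2FC −0.55, FDR = 0.00803) than in A’, where the F’ call was lost without F’ library 1 (FDR = 0.0577) and the B’ call without TMM normalization. LOC102590649 (92A1-like) was lower in B’ than in A’ (Log2FC −0.78, FDR = 0.0199), a call lost without A’ library 3 (FDR = 0.101) and without TMM normalization. LOC102600174 (86A1-like) was called in no comparison (Log2FC 0.03 in B’ vs. A’ and −0.05 in F’ vs. A’). UDP-glycosyltransferase 708A6-like (LOC102596262) is named after a maize enzyme that joins glucose to flavones through carbon. LOC102596262 was lower in B’ (Log2FC −1.33, FDR = 0.00046) and in F’ (Log2FC −0.96, FDR = 0.0274) than in A’. Its F’ call was lost without A’ library 2 or 3 (FDR up to 0.0788) and without TMM normalization. In F’ vs. B’ this gene was not called (Log2FC 0.35, FDR = 0.541). It overlaps another listed gene.

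The hydroquinone glucosyltransferases are named after arbutin synthase of Rauvolfia. LOC102590518 (chromosome 4) had 134, 123 and 143 counts in F’, 424, 398 and 440 in B’, and 260, 228 and 285 in A’. It was lower in F’ than in A’ (Log2FC −1.15, SE 0.15, FDR = 4.07e-05) and than in B’ (Log2FC −1.54, SE 0.12, FDR = 1.23e-05). In B’ vs. A’ it was called higher (Log2FC 0.38, FDR = 0.0467), a call that any left-out library of B’ or A’ removed (FDR up to 0.168), as did DESeq2 and a minimum of only 1 count. LOC102602649, of the same name, had 8123, 8241 and 7712 counts in F’ and 8683, 8212 and 7020 in B’, against 8364, 9395 and 8244 in A’, and its F’ and A’ libraries did not differ at the threshold (Log2FC −0.30, FDR = 0.0641). The B’ vs. A’ call of this gene (Log2FC −0.43, FDR = 0.0245) was lost without TMM normalization, without any A’ library or without B’ library 2 (FDR up to 0.0823 without a library). Of 4 flavonoid 3-O-glucosyltransferases, LOC102592699, with the most counts, was called in no comparison (Log2FC −0.10 in B’ vs. A’, −0.10 in F’ vs. A’ and −0.01 in F’ vs. B’), and neither was LOC102601174. The other 2, chosen after their values were seen, were called in both comparisons with A’ and overlap other listed genes. LOC102582127 was higher in F’ (Log2FC 0.49, FDR = 0.0105) and in B’ (Log2FC 0.40, FDR = 0.0329) than in A’, where the F’ call was lost without A’ library 3 (FDR = 0.0624) and the B’ call without A’ library 2 or 3 or B’ library 2 (FDR up to 0.172). LOC102581928 was lower in F’ (Log2FC −0.70, FDR = 0.0137) and in B’ (Log2FC −0.83, FDR = 0.0118) than in A’, and both calls were lost without A’ library 3 (FDR up to 0.11 and 0.0771) and without TMM normalization. The product named TURAN (LOC102587872), which in Arabidopsis serves protein glycosylation in pollen tubes and entered only through its name, was called in F’ vs. B’ (Log2FC 0.42, FDR = 0.046), and the call was lost without any F’ library, without B’ library 1 or 2 (FDR up to 0.153) and under 2 other scalings.

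Of all members, 86 were called in at least 1 comparison and 20 in all 3. The same counts were not made over all genes, so these describe the members only. Without a call were 26 members tested in all 3 comparisons and 5 tested in some only. A further 28 members were tested in none, and the highest single count among these was 33, in LOC102583841. Among them were the only listed 82A1 and 83A1 genes. LOC102594899 (UDP-glycosyltransferase 82A1) had 0, 0 and 1 counts in F’ and 1, 2 and 2 in B’, against 10, 4 and 5 in A’. Its counts in A’ were 21.9 times those in F’ (95% interval 3.48 to 910) and 4.76 times those in B’ (95% interval 1.72 to 16.3), where the intervals cover counting error only and not the spread between libraries.

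The members draw on UDP-sugars, and their products are hydrolysed by beta-glucosidases or moved by MATE transporters, so lists of these genes were examined beside them. These lists, too, are given as counts only, to be read beside the shares of all genes, which were 17.5% higher and 18.2% lower in F’ vs. A’, 16.4% and 16.5% in B’ vs. A’, and 13.7% and 16.3% in F’ vs. B’. Of the genes named for nucleotide sugar supply, 2 of 21 tested were higher and 9 lower in F’ than in A’ (median Log2FC −0.57), 1 of 20 was higher and 9 lower in F’ than in B’ (median −0.56), and 6 of 20 were higher and 2 lower in B’ than in A’ (median 0.01). UDP-glucuronate 4-epimerase 6-like (LOC102582871), which makes UDP-galacturonate for pectin, had 2706, 2084 and 2394 counts in F’ and 8691, 7523 and 7323 in B’, against 3875, 4491 and 4421 in A’, and was chosen after its values were seen. The gene was lower in F’ than in A’ (Log2FC −1.03, FDR = 1.39e-05) and than in B’ (Log2FC −1.61, FDR = 1.2e-05), and higher in B’ than in A’ (Log2FC 0.57, FDR = 0.0049).

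For the following lists the shares of all genes were again 17.5% higher and 18.2% lower in F’ vs. A’, 16.4% and 16.5% in B’ vs. A’, and 13.7% and 16.3% in F’ vs. B’. The list of beta-glucosidases also holds, by its wording, glucan endo-1,3-beta-glucosidases of cell walls and defence. Of these genes, 8 of 57 were higher and 33 lower in F’ than in A’ (median Log2FC −0.56), and 6 of 56 were higher and 23 lower in F’ than in B’ (median −0.46). In B’ vs. A’, 10 of 54 were higher and 13 lower, which turned to 15 and 8 without TMM normalization. MATE transporters had 7 of 36 higher, a share near that of all genes, and 14 lower in F’ than in A’ (median −0.34). They had 7 of 35 higher and 13 lower in B’ than in A’, which turned to 10 and 5 without TMM normalization, and 7 of 35 higher and 10 lower in F’ than in B’. Enzymes that make the flavonoid aglycones had 5 of 23 higher and 7 lower in F’ than in A’ and 5 of 25 higher and 7 lower in B’ than in A’, and these turned to 6 and 5 and to 7 and 6 without TMM normalization. Their shares of higher genes were near those of all genes, and in F’ vs. B’ 5 of 24 were higher and 7 lower. Glycosyltransferases of zeatin, a cytokinin hormone, had 6 of 30 higher and 14 lower in F’ than in A’ (median −0.50), and 6 of 28 higher and 12 lower in B’ than in A’ (median −0.51), while 9 of 27 were higher and 6 lower in F’ than in B’ (median 0.05, and −0.07 without TMM normalization).

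Among the genes of glycoalkaloid glycosylation, the rhamnosyltransferase of beta-solanine and beta-chaconine (LOC102577928), which attaches the last sugar, had 245, 243 and 226 counts in F’ and 165, 159 and 117 in B’, against 1724, 1665 and 1694 in A’. The transferase was lower in F’ (Log2FC −3.02, FDR = 1.46e-09) and in B’ (Log2FC −3.84, FDR = 5.12e-08) than in A’, and higher in F’ than in B’ (Log2FC 0.80, FDR = 0.00715).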

How the data were processed

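Leaf RNA of bulk samples F’, B’ and A’ was measured by RNA-seq in 3 libraries per bulk, with groups taken from the labels. After TRIzol isolation and Dynabeads selection of mRNA, strand-marking libraries were run on a BGISEQ-500. The submitters’ processing notes list Bowtie2 2.1.0, TopHat2 2.0.9 and DESeq2, and the counting tool and its strand setting are not given in the sources used here. Contig names are those of SolTub_3.0. The deposited raw counts are whole reads per gene, without normalization, and only these were used. The signal columns hold normalized counts and their mean, made by the authors with a size factor per library. The remaining deposited columns hold the authors’ own comparisons and were not used, namely a linear fold ratio, log2 fold changes, p-values and a score that is the standard error. No gene with fewer than 5 counts over the 6 libraries of a table was listed.

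Each comparison was fitted with edgeR 4.0.16 on all genes (filterByExpr, TMM, robust quasi-likelihood test, Benjamini-Hochberg FDR). F’ vs. B’ used the 22988 genes listed in both tables. Normalized counts were put on the average effective size of the 9 libraries. The floor was 3 counts per library. Where all libraries were at 0, the fold is a lower bound against 3 counts per library, and otherwise the ratio of pooled counts is given with its exact 95% Clopper-Pearson interval. Permuting 3 against 3 libraries for 1 gene can give no exact p below 0.1. On simulated data, 91 of 100 genes changed 2-fold and 98 of 100 changed 4-fold were called in B’ vs. A’. These numbers were 80 and 100 in F’ vs. A’ and 87 and 98 in F’ vs. B’. Unchanged genes called numbered 14, 7 and 5 in the same order. The simulation left out genes with few counts and gave all genes the same spread. Its rates therefore do not hold for members with few counts. Alternatives were DESeq2 1.42.0, upper-quartile scaling, a minimum of only 1 count, a block for the replicate number, a joint fit, an FDR threshold of 0.01, leaving out each library and, chosen after seeing the data, total-count scaling.

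The members and lists were chosen with earlier results of these data known. Named are the called members with the 10 highest and 10 lowest Log2FC in B’ vs. A’ and in F’ vs. A’ and the 6 and 6 in F’ vs. B’, among those with a mean of at least 50 normalized counts in either group, members at the floor whose other group averaged at least 30, the member with the most counts of each class, the rhamnosyltransferases named in the study’s text, and neighbours within 50 kb. No sequences were read.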

Additional observations from a re-analysis of the deposited data

Results flagged for a closer look

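For 7 members, B’ and F’ differed from A’ in opposite directions, both with an FDR under 0.05. All were also called in F’ vs. B’ by edgeR’s test. This choice nearly fixes that outcome, so the F’ vs. B’ values are descriptions. The number of such genes over all genes was not counted. A pair of neighbouring 7-deoxyloganetin glucosyltransferases was higher in B’ and lower in F’ than in A’. LOC102582137 had a Log2FC of −1.27 in F’ vs. B’ (0.66 in B’ vs. A’ and −0.60 in F’ vs. A’), and LOC102582803 had −1.61 (0.97 and −0.62). The hydroquinone glucosyltransferase-like gene LOC102590518 had −1.54 (0.38 and −1.15), and its B’ vs. A’ value is the weak call described above. The other 4 were lower in B’ and higher in F’ than in A’, and they form 2 runs. The anthocyanidin 3-O-glucosyltransferase 5-like gene LOC102601479 had a Log2FC of 3.36 in F’ vs. B’ (−2.98 and 0.40), and its neighbour LOC107060575 had 3.26 (−2.56 and 0.71). LOC102603165 (73C3-like) had 1.51 (−1.12 and 0.41), and LOC102604180 (73C5-like) had 2.40 (−1.91 and 0.51). The F’ vs. A’ calls of LOC102601479, LOC102603165 and LOC102604180 were lost without single libraries (FDR up to 0.102, 0.108 and 0.142).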

How the results depend on the processing

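No Log2FC of a member changed sign where it was called, under any alternative. Of the 174 calls of members, 115 were kept under every alternative and 158 under the planned ones other than the stricter threshold and leaving out a library. DESeq2 lost 10, a joint fit 3, no filter 3, upper-quartile scaling 2 and total-count scaling 25, the last chosen after seeing the data. An FDR threshold of 0.01 lost 54, with 15 members lower in F’ vs. A’ and 16 higher in F’ vs. B’, since it asks for more evidence. Leaving out a library gave 25 to 37 higher and 24 to 32 lower members in B’ vs. A’, 23 to 32 and 19 to 30 in F’ vs. A’, and 22 to 29 and 19 to 27 in F’ vs. B’. Replicate numbers were not taken as pairs, since same-numbered libraries had correlations of their deviations from −0.21 to 0.01 in B’ and A’ and −0.25 to −0.02 in F’ and A’, and in F’ and B’ of 0.32 and 0.34 for numbers 2 and 3 but −0.12 for number 1. With the replicate block, 28 members were higher and 28 lower in B’ vs. A’, 32 and 21 in F’ vs. A’, and 35 and 25 in F’ vs. B’, and 11 calls were lost, among them those of LOC107061623, LOC102601849, LOC102582127 and LOC102590518 in B’ vs. A’. Members with few counts limit the fold changes, as their intervals show.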
